A study of Mus musculus with 4 samples.

Results

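The 8 genes described here are *Ly6a*, *Clu*, *Anxa1*, *Ctgf*, *Cyr61*, *Ankrd1*, *Amotl2* and *Spp1*, which are read in mouse intestine as markers of a fetal-like repair state or as targets of the transcriptional coactivator YAP. They were chosen by name, as were the other gene lists below, but with earlier results of these data known. A count set beside the share of all genes is therefore a description and not a test. Every probe that the array assigns to one of the 8 symbols was taken, 9 of 39429 probes and 8 of 30214 gene names in all. *Anxa1* has 2 probes and each of the others has 1. The RNA came from the descending colon of male mice, *Pla2g3*+/+ or *Pla2g3*-/-, lacking the secreted phospholipase A2 of group III, on a B6.129 background of backcross generation 3. Both genotypes received either saline as vehicle or azoxymethane (AOM), a carcinogen that gives rise to colon tumors, in 6 weekly injections of 10 mg/kg. Tissue was collected 28 weeks after the final dose, at a labeled age of 42 weeks. Each of the 4 groups is 1 array hybridized with RNA pooled from 3 to 5 mice, so that no ratio has a replicate check across mice and no p-value is given. The knockout is not restricted to one cell type, and the AOM pools are labeled as colorectal cancer tissue.

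YAP and its relative TAZ are held in the cytoplasm by the kinases of the Hippo pathway, and when released they enter the nucleus and bind TEAD factors on DNA. In the intestine this program is known from wound repair, in which crypt cells lose stem cell markers such as *Lgr5* for a time and take on genes of the fetal epithelium. *Ly6a* encodes the surface protein Sca-1, *Clu* the secreted chaperone clusterin that marks revival stem cells, and *Anxa1* a lipid-binding protein that restrains inflammation and aids epithelial closure. *Ctgf* and *Cyr61* encode matricellular proteins of the CCN family, *Ankrd1* a nuclear and sarcomeric ankyrin repeat protein, and *Amotl2* a junction protein that binds YAP and holds it back. *Spp1* encodes osteopontin, a secreted ligand of integrins and CD44 made by macrophages and epithelial cells among others.

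Because YAP reaches its targets through TEAD, the 250 bases before the start of transcription are shown for those members in which they hold the TEAD core motif GGAATG or its reverse complement CATTCC. RefSeq promoters of build GRCm38.p6 were found for 5 of the 8 genes, namely *Anxa1*, *Cyr61*, *Ankrd1*, *Amotl2* and *Spp1*. The promoter set used held none for *Ly6a*, *Clu* and *Ctgf*, so their motifs are not known here. The motif was present in 4 of these 5 genes and in 12.6% of all 32851 promoters of the same length. Capitals mark the motif, and each sequence runs 5′ to 3′ toward the start.
*Ankrd1*, chr19:36119845-36120094, minus strand: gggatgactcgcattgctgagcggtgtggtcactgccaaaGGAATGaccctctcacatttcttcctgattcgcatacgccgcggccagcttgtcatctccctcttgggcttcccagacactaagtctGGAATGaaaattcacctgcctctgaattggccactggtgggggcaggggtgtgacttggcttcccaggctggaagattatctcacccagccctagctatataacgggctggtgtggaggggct
*Cyr61*, chr3:145649986-145650235, minus strand: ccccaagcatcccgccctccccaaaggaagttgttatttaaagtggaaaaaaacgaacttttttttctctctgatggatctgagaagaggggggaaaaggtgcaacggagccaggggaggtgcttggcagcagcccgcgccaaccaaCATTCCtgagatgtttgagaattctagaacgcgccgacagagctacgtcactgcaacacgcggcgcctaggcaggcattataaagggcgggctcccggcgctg
*Amotl2*, chr9:102717554-102717803, plus strand: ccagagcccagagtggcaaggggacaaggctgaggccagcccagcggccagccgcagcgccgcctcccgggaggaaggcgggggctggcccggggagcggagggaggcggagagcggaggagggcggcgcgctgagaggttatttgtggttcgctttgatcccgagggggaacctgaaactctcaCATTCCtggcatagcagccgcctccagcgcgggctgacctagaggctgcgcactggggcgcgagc
*Anxa1*, chr19:20390672-20390921, minus strand: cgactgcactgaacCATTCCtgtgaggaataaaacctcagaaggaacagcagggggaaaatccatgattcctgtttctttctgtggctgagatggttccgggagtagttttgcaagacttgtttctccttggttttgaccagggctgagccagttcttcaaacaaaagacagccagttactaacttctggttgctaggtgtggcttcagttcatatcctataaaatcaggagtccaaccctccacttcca
*Ankrd1* held the motif at positions −210 and −123 from the start, and 1.02% of all promoters held it 2 or more times. It lay at −103 in *Cyr61*, at −65 in *Amotl2* and at −236 in *Anxa1*. Neither of the 2 promoters of *Spp1* held it within these bases. The AP-1 motif TGANTCA, whose reverse complement has the same form and which can overlap with the TEAD motif, was found in 0 of the 5 genes and in 6.75% of all promoters. A match is a stretch of letters and not a measured binding site.

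Signals are the spot intensity after background subtraction divided by the 75th percentile of the array, so that a value of 1 is the brightness of a probe at that percentile. The scanner software called 64.8% to 69.4% of spots per array well above background and none saturated. The only error that could be measured is that of the array itself. Probes spotted 3 or more times differed among their spots by a median SD of 0.052 to 0.057 log2 units where the intensity was 200 or more, and of 0.105 to 0.126 where it was lower. The signal of the targeted gene was not lower in the pools labeled as knockout. On its brightest probe, chr11:3394109-3394168 of mm9, the ratio of *Pla2g3* between the pools labeled *Pla2g3*-/- and *Pla2g3*+/+ was 1.23 with vehicle and 6.01 after AOM. Which part of the gene was deleted is not given in the sources used here, a probe outside it checks nothing, and whether a label is crossed was not tested. Genotypes are named below as labeled.

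The tissue in the pools also differed, as shown by lists of cell type markers. In the *Pla2g3*+/+ AOM pool, the summed signal of 6 colonocyte genes was 23.5, against 566 and 590 in the vehicle pools and 271 in the *Pla2g3*-/- AOM pool. Smooth muscle genes gave 31.0 in the same pool and 487 to 535 in the others, and all 5 enteric glia genes were over 2-fold lower than with vehicle. Fibroblast genes summed to 39.5 and 44.5 with vehicle, 118 in *Pla2g3*+/+ and 86.2 in *Pla2g3*-/- after AOM. The sums for epithelial genes ran from 365 in *Pla2g3*+/+ after AOM to 614, for endothelial genes from 4.07 to 7.08 and for macrophage genes from 23.4 to 31.3. Neutrophil genes summed to 91.6 in *Pla2g3*+/+ after AOM and to between 49.9 and 54.4 elsewhere, and T cell genes to between 2.13 and 6.35. The sums for squamous epithelium genes ran from 6.11 to 23.8, the highest in *Pla2g3*-/- after AOM. Pancreatic acinar genes summed to 43.4 in the *Pla2g3*-/- vehicle pool and to 0.382 or less in the others. In such pools, fewer cells of a type and less RNA per cell cannot be told apart, and the part of tissue content in the ratios below was not tested.

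**Figure D1:**
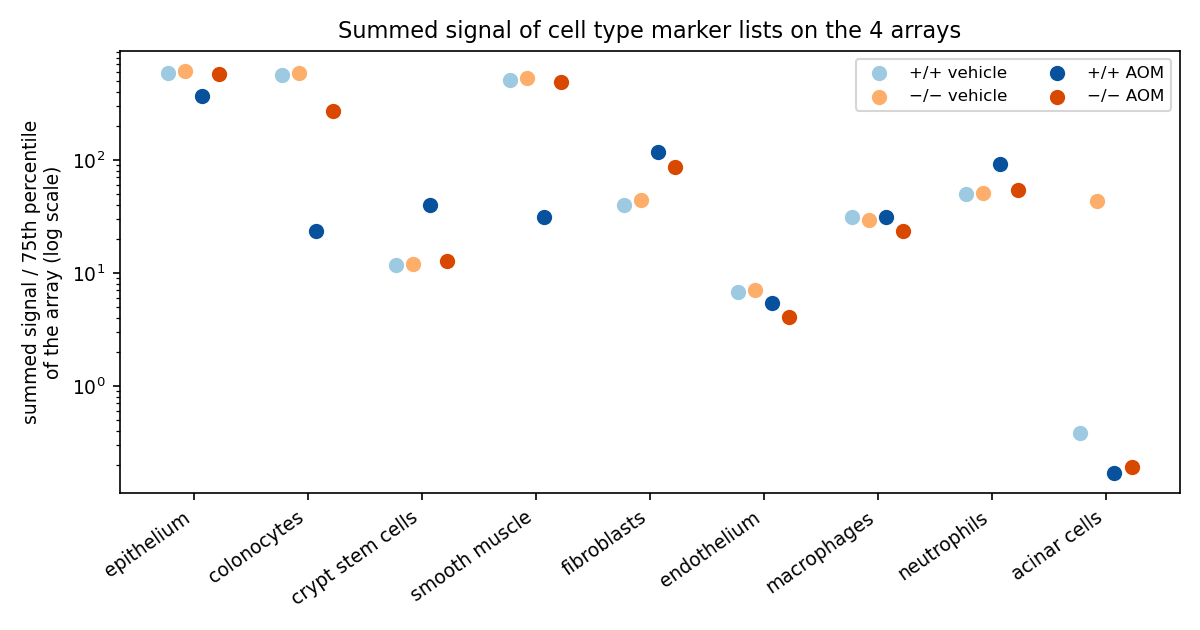
Summed signal of 9 lists of marker genes on the 4 arrays, as multiples of the 75th percentile of the array on a log scale, 1 point per array. The *Pla2g3*+/+ AOM pool is the lowest for colonocyte genes, at 23.5, and smooth muscle genes, at 31.0, and the *Pla2g3*-/- vehicle pool stands apart for acinar genes, at 43.4.

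Between AOM and vehicle in *Pla2g3*+/+ colon, 5 of the 8 genes were over 2-fold higher, namely *Spp1*, *Clu*, *Cyr61*, *Ctgf* and *Anxa1*, and 0 were over 2-fold lower. Over all genes with a value, 14.7% of 21774 were past 2-fold higher and 23% past 2-fold lower. The 8 genes had a median log2 ratio of 1.39, with the ratio of *Spp1* at its bound, against −0.23 over all genes. *Spp1* has a value here only through the *Pla2g3*+/+ AOM pool, where it is high. With only pairs above background on both arrays, 4 genes passed, all of them higher. *Ly6a*, *Ankrd1* and *Amotl2* stayed within 2-fold. In *Pla2g3*-/- colon, 0 of the 7 genes with a value were over 2-fold higher and 1, *Clu*, was over 2-fold lower, where 10.3% and 16.7% of 20612 genes passed in these directions. This count changed direction with the processing. With quantile normalization, and with normexp and quantile normalization, 1 gene, *Anxa1*, was past 2-fold higher and 0 were lower. These 7 genes, without *Spp1*, had a median log2 ratio of 0.40, against −0.13 over all genes. The medians of the 2 genotypes are thus not over the same genes.

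**Figure D2:**
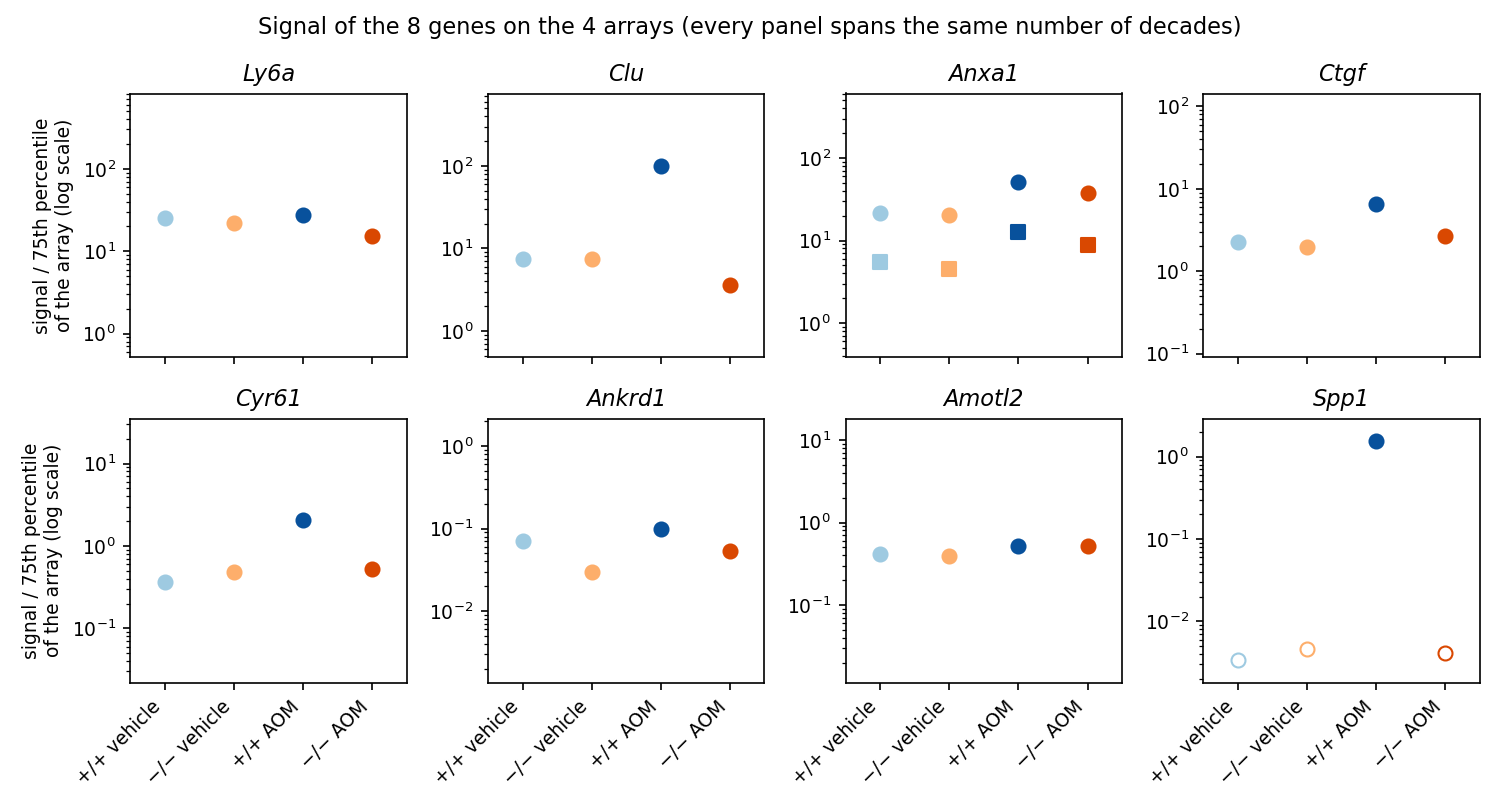
Signal of each of the 8 genes on the 4 arrays, as multiples of the 75th percentile of the array on a log scale. Circles are the brightest probe and squares the other probe of *Anxa1*. Filled symbols are well above background and open ones are not. *Spp1* has a filled symbol in the *Pla2g3*+/+ AOM pool only, at 1.53, and *Clu* reaches 99.9 there.

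*Spp1* showed the widest difference of the 8 genes between AOM and vehicle in *Pla2g3*+/+ colon. Its probe, at chr5:104868502-104868561 of mm9, gave a signal of 1.53 in the *Pla2g3*+/+ AOM pool. The signal was 0.00339 in *Pla2g3*+/+ and 0.00465 in *Pla2g3*-/- with vehicle and 0.00418 in *Pla2g3*-/- after AOM, none of them well above background. Osteopontin mRNA was thus detected in 1 of the 4 pools. It was at least 92.0-fold higher after AOM than with vehicle in *Pla2g3*+/+ colon, and no fold change can be given in *Pla2g3*-/- colon. With normexp and quantile normalization, whose offset of 50 narrows ratios of dim probes, its log2 ratio was 4.08 in place of at least 6.52. The sequence of this probe is shown because the call rests on it alone; it starts at base 628 of its transcript, is on the plus strand and has no capitals.
*Spp1* probe: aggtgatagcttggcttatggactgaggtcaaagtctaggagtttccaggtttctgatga
Macrophages are a known source of osteopontin. In the same comparison 6 of 8 macrophage genes were over 2-fold higher and 1 lower, where 14.7% and 23% of all genes were. *Cd14*, for example, had 3.08 with vehicle and 7.09 after AOM. The lower one was *Itgam*, at 18.7 and 5.95, and the summed signal of the list was 31.0 and 31.3. Which cells gave the *Spp1* signal was not tested.

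*Clu*, with its probe at chr14:66600325-66600382 of mm9, had the same signal in both vehicle pools, 7.48 in each. It reached 99.9 in *Pla2g3*+/+ after AOM and 3.64 in *Pla2g3*-/- after AOM. The *Pla2g3*+/+ AOM pool was therefore 13.4-fold above its vehicle pool, rank 225 among 21774 genes with bounds taken at their limit, whereas the *Pla2g3*-/- AOM pool was the lowest of the 4, 2.06-fold below its vehicle pool. The latter ratio, a log2 value of −1.04, did not pass 2-fold with quantile normalization (−0.78), with normexp background correction and quantile normalization (−0.73), relative to the epithelium markers (−0.74) or without scaling (−0.20). The rise in *Pla2g3*+/+ colon passed 2-fold under each of the alternatives that were run, with a log2 ratio of 4.40 after quantile normalization against 3.74.

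Both CCN genes were past 2-fold higher after AOM in *Pla2g3*+/+ colon. *Cyr61* (chr3:145310187-145310246) had signals of 0.369 in *Pla2g3*+/+ and 0.481 in *Pla2g3*-/- with vehicle, 2.07 in *Pla2g3*+/+ after AOM and 0.520 in *Pla2g3*-/- after AOM. It was 5.61-fold higher after AOM in *Pla2g3*+/+ colon and its ratio was 1.08 in *Pla2g3*-/- colon, so that 3 of the 4 pools lay close to each other and 1 stood above them. *Ctgf* (chr10:24318281-24318340) had signals of 2.28 and 1.98 with vehicle, 6.54 in *Pla2g3*+/+ after AOM and 2.68 in *Pla2g3*-/- after AOM. The ratios to vehicle were 2.87 and 1.35. Fibroblasts and smooth muscle also make these proteins. Fibroblast genes rose past 2-fold in 5 of 8 cases in *Pla2g3*+/+ and 4 of 8 in *Pla2g3*-/-, with *Col1a2* at 5.75 and 6.83 with vehicle and 35.9 and 14.5 after AOM, and 7 of 7 smooth muscle genes fell past 2-fold in *Pla2g3*+/+. The shares of all genes were 14.7% higher and 23% lower in *Pla2g3*+/+ and 10.3% higher in *Pla2g3*-/-.

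*Anxa1* was higher in both AOM pools. Its brighter probe (chr19:20447938-20447997) gave 21.8 in *Pla2g3*+/+ and 20.2 in *Pla2g3*-/- with vehicle, 52.0 in *Pla2g3*+/+ after AOM and 37.9 in *Pla2g3*-/- after AOM. The ratios to vehicle were 2.38 and 1.88. The dimmer probe (chr19:20449722-20449781), which is shown as the second, separate reading of this gene and starts at base 991 of its transcript, lies on the minus strand and has no capitals.
*Anxa1* probe: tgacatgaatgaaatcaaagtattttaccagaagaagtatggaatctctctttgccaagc
It gave 5.52 and 4.48 with vehicle and 12.7 and 8.94 after AOM, ratios of 2.30 and 1.99. Both probes thus put *Anxa1* past 2-fold in *Pla2g3*+/+ and just short of it in *Pla2g3*-/-. In *Pla2g3*+/+ the brighter probe had a log2 ratio of 2.01 with quantile normalization, against 1.25. In *Pla2g3*-/- it passed with quantile normalization, at a log2 ratio of 1.47, against 0.91 as scaled here, and without scaling, at 1.76. Of 11 other annexins, 2 were over 2-fold higher (*Anxa6* and *Anxa8*) and 2 over 2-fold lower (*Anxa11* and *Anxa13*) after AOM in *Pla2g3*+/+ colon. These counts are near the shares of all genes, 14.7% higher and 23% lower.

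*Ly6a*, *Ankrd1* and *Amotl2* did not pass 2-fold with AOM in either genotype. *Ly6a* (chr15:74825553-74825612) had signals of 25.4 in *Pla2g3*+/+ and 22.2 in *Pla2g3*-/- with vehicle, 27.5 in *Pla2g3*+/+ after AOM and 15.4 in *Pla2g3*-/- after AOM. Its ratios to vehicle were 1.08 and 0.694. *Amotl2* (chr9:102635025-102635084) was the flattest, with 0.412 and 0.393 with vehicle and 0.526 and 0.518 after AOM, a span of 1.34-fold over the 4 pools. *Ankrd1* (chr19:36186809-36186868) was dim, with signals of 0.0704 and 0.0295 with vehicle and 0.0981 and 0.0535 after AOM. The ratios to vehicle were 1.39 in *Pla2g3*+/+ and 1.81 in *Pla2g3*-/-, which made it the only one of the 7 genes with both ratios, apart from *Amotl2*, that was further above vehicle in *Pla2g3*-/-. The Ly6 genes are close paralogs, and how far 60 bases separate their transcripts was not measured. Of 8 other Ly6 genes on the array, 1, *Ly6d*, was over 2-fold higher in *Pla2g3*+/+ after AOM, near the share of all genes, 14.7%. Its signals were 1.89 with vehicle and 11.8 after AOM. *Ly6d* is a marker of squamous epithelium, but the squamous list summed to 6.72 and 7.61 in these 2 pools. That sum was highest, at 23.8, in *Pla2g3*-/- after AOM, where *Ly6d* had a signal of 3.00.

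**Figure D3:**
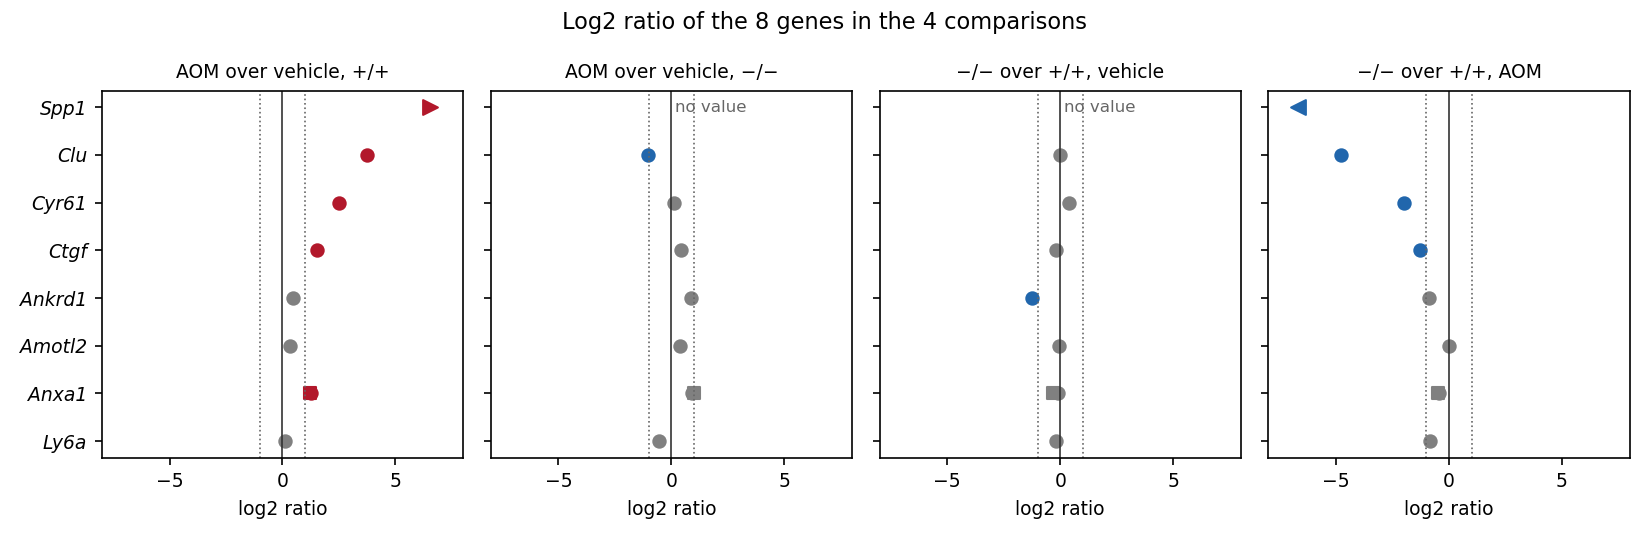
Log2 ratio of each gene in the 4 comparisons, with 2-fold marked by dotted lines. Circles are the brightest probe and squares the other probe of *Anxa1*, red is past 2-fold higher, blue past 2-fold lower, and triangles are bounds. In *Pla2g3*+/+ colon 5 of the 8 genes lie past 2-fold with AOM, and in *Pla2g3*-/- colon *Clu* alone lies past it, on the lower side.

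Between the genotypes, the vehicle pools differed little. Of the 7 genes with a value, 6 were within 2-fold, with ratios from 0.871 for *Ctgf* to 1.30 for *Cyr61*, and 0 were past 2-fold higher, where 2.24% of 20479 genes were. The remaining gene, *Ankrd1*, was 2.39-fold lower in the pool labeled *Pla2g3*-/-, as 1.55% of genes were past 2-fold lower, with an intensity of 19.2 against 45.5. The lowest intensity well above background on the *Pla2g3*-/- vehicle array was 14.8. *Ankrd1* did not pass 2-fold with normexp and quantile normalization, at a log2 ratio of −0.46 in place of −1.25. *Spp1* was not well above background in either pool. All 8 acinar genes were past 2-fold higher in the same *Pla2g3*-/- pool, and their part in the ratio of *Ankrd1* was not tested.

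After AOM, *Pla2g3*-/- fell more than 2-fold short of *Pla2g3*+/+ for 4 of the 8 genes and exceeded it by as much for 0, where 12.7% and 14.4% of 21575 genes passed in these directions. *Spp1* was at least 104-fold lower, *Clu* 27.5-fold, *Cyr61* 3.98-fold and *Ctgf* 2.44-fold. Normexp and quantile normalization gave *Spp1* −4.03 on the log2 scale, in place of at most −6.71. *Clu* had rank 127 from the lowest ratio of all genes, with bounds taken at their limit. *Ankrd1* (1.83-fold lower), *Ly6a* (1.79-fold lower) and *Anxa1* (1.37-fold lower, 1.42-fold by its other probe) lay on the same side without passing 2-fold, and *Amotl2* had a ratio of 0.984. The 8 genes had a median log2 ratio of −1.08, with *Spp1* at its bound, against 0.02 over all genes. With only pairs above background on both arrays, which leaves *Spp1* out, 3 genes passed, all of them lower. This comparison and that of AOM with vehicle in *Pla2g3*+/+ colon share the *Pla2g3*+/+ AOM array, so a high signal there enters both. All of the 8 genes but *Amotl2* had their highest signal on that array by more than 0.1 log2 units, and the 2 AOM signals of *Amotl2* had the other order with scaling by the median and with normexp and quantile normalization. In the same genotype comparison, 6 of 8 macrophage, 5 of 7 neutrophil, 5 of 7 T cell, 4 of 8 fibroblast and 3 of 7 endothelial genes were past 2-fold lower in *Pla2g3*-/-. The macrophage gene *Itgam* and the fibroblast gene *Lum* were past 2-fold higher. So were 7 of 7 smooth muscle, 6 of 6 colonocyte, 5 of 5 glia and 3 of 9 epithelial genes. Of 7 squamous genes with a value, 2 were lower and 1 higher, and of 3 acinar genes 1 was higher. *Ly6a* passed 2-fold with quantile normalization, at a log2 ratio of −1.10 in place of −0.84, and with normexp and quantile normalization, at −1.06. Without scaling both *Ly6a*, at −1.002, and *Ankrd1*, at −1.04, passed, so that 6 of the 8 genes were lower. Relative to the epithelium markers all 8 were.

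Upstream of the targets, *Yap1* had signals of 4.30 and 4.56 with vehicle and 7.60 in *Pla2g3*+/+ and 5.80 in *Pla2g3*-/- after AOM, ratios to vehicle within 2-fold, and *Wwtr1*, the gene for TAZ, had 0.378, 0.384, 0.508 and 0.430. The TEAD genes went different ways. *Tead2* had signals of 0.433 and 0.546 with vehicle, 3.79 in *Pla2g3*+/+ after AOM and 0.253 in *Pla2g3*-/- after AOM, and was thus higher in *Pla2g3*+/+ by a log2 ratio of 3.13 and lower in *Pla2g3*-/- by −1.11. *Tead1* rose past 2-fold in both genotypes, at 1.73 and 1.26 on the log2 scale. *Tead4* rose in *Pla2g3*+/+, at 1.79, and had a ratio of −0.73 in *Pla2g3*-/-, while *Tead3* had 0.12 and 0.70. Of 13 Hippo kinases and scaffolds, which restrain YAP, 2 rose past 2-fold with AOM in *Pla2g3*+/+ colon, both relatives of *Amotl2*, namely *Amot* at a log2 ratio of 2.53 and *Amotl1* at 1.04, and 0 fell, against 14.7% and 23% of all genes. In *Pla2g3*-/- colon, 2 of the 12 with a value rose, *Stk4* and *Wwc1*, at 1.30 and 1.21, and 0 fell. There 10.3% of all genes rose and 16.7% fell.

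Among 20 other genes of a general YAP/TAZ target signature, 8 rose and 1 fell past 2-fold with AOM in *Pla2g3*+/+ colon, and 8 rose and 0 fell in *Pla2g3*-/- colon. Their median log2 ratios were 0.74 and 0.76. Over all genes, 14.7% rose and 23% fell past 2-fold in *Pla2g3*+/+, and 10.3% rose and 16.7% fell in *Pla2g3*-/-. Among the ratios measured on both sides, the highest in *Pla2g3*+/+ were *Ajuba*, a LIM protein that inhibits LATS kinases, at 3.74, *Rbms3* at 2.50 and *F3*, the gene for tissue factor, at 2.30. In *Pla2g3*-/- they were *Nt5e*, the ectonucleotidase CD73, at 2.08, *Dock5* at 1.93 and *Asap1* at 1.32. *Myof* was not well above background with vehicle, so that its ratios of at least 2.07 and at least 1.31 have no place in this order. Between genotypes after AOM, *Pla2g3*-/- was past 2-fold higher for 3 of these genes (*Asap1*, *Fjx1* and *Nt5e*) and past 2-fold lower for 4, *Ajuba* the lowest at a log2 ratio of −2.54, with a median of 0.17 over the list. Among the 8 members this median was −1.08. Over all genes, 14.4% were past 2-fold higher and 12.7% lower between genotypes after AOM.

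Of 16 other genes known from fetal-like or regenerating intestinal epithelium, 11 rose and 1 fell past 2-fold with AOM in *Pla2g3*+/+ colon, with a median log2 ratio of 1.85, bounds included. In *Pla2g3*-/- colon 5 rose and 3 fell, with a median of 0.03. The shares of all genes were 14.7% and 23% in *Pla2g3*+/+ and 10.3% and 16.7% in *Pla2g3*-/-. *Msln*, the gene for mesothelin, had signals of 0.371 and 0.284 with vehicle, 3.32 in *Pla2g3*+/+ after AOM and 0.0236 in *Pla2g3*-/- after AOM, and so went past 2-fold in opposite directions. *Basp1* did so as well, at log2 ratios of 2.45 and −1.62. *Emp1* fell in both genotypes, from 56.1 to 18.9 and from 66.5 to 19.3. Between genotypes after AOM, *Pla2g3*-/- was past 2-fold lower for 7 of the 16 and higher for 0, where 12.7% and 14.4% of all genes were. The lowest were *Msln* at a log2 ratio of −7.14, *Basp1* at −4.27 and *Plaur*, the urokinase receptor, at −3.39. Among 8 crypt stem cell genes, 7 rose in *Pla2g3*+/+ and 1 in *Pla2g3*-/-, where 1 also fell. *Lgr5* had signals of 0.134 and 0.178 with vehicle, 1.19 in *Pla2g3*+/+ after AOM and 0.0628 in *Pla2g3*-/- after AOM.

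**Figure D4:**
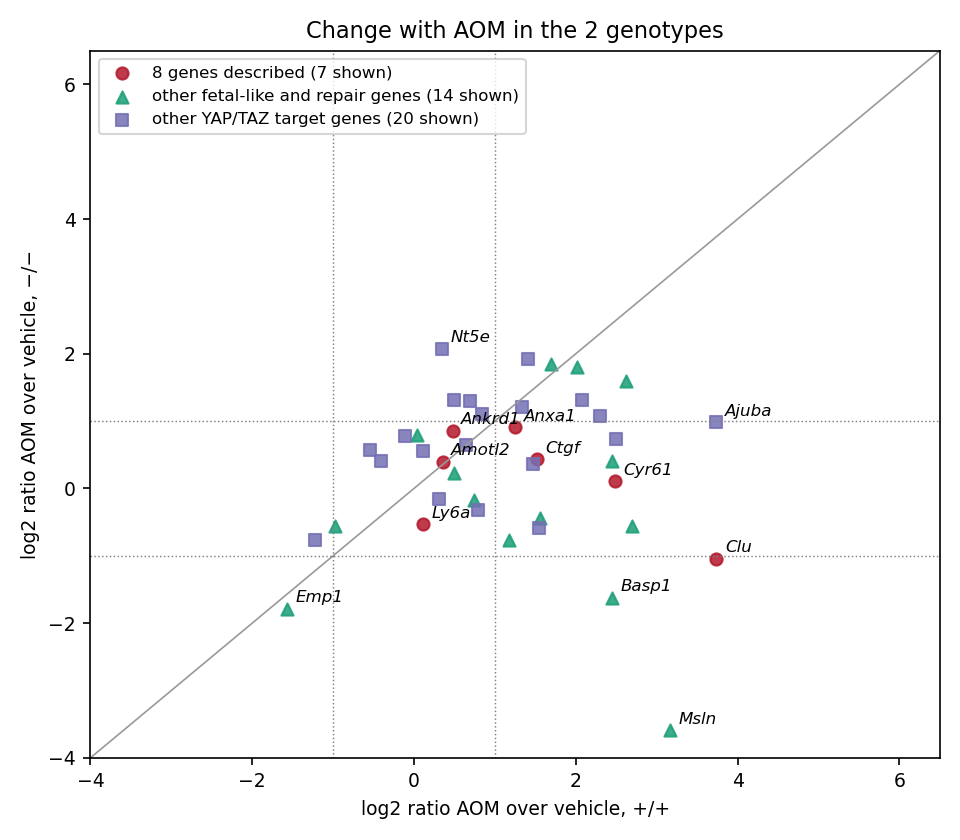
Log2 ratio of AOM over vehicle in *Pla2g3*+/+ colon (horizontal) and *Pla2g3*-/- colon (vertical), 1 point per gene, with 2-fold marked by dotted lines and equal change by the diagonal. *Spp1* has no value in *Pla2g3*-/- and is left out, not every gene of the fetal-like list is shown, and *Myof* is drawn at its bounds. Circles are the 8 genes, triangles other fetal-like genes and squares other YAP targets. *Clu*, *Basp1* and *Msln* lie past 2-fold in opposite directions, whereas *Emp1* is past 2-fold lower in both.

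Of 11 receptor genes for osteopontin, CCN proteins and annexin A1, 8 rose and 0 fell past 2-fold with AOM in *Pla2g3*+/+ colon. Over all genes, 14.7% rose and 23% fell there. In *Pla2g3*-/- colon 2 receptor genes rose and 2 fell, near the shares of all genes, 10.3% and 16.7%. *Fpr2*, a receptor of annexin A1, had signals of 0.0239 and 0.0573 with vehicle, 0.358 in *Pla2g3*+/+ after AOM and 0.0382 in *Pla2g3*-/- after AOM. Formyl peptide receptors are carried by neutrophils, whose marker sum was also highest in that pool. *Itgav*, the integrin αv chain, rose in both genotypes, at log2 ratios of 2.65 and 1.54. *Cd44*, an osteopontin receptor that is also a Wnt target, rose in *Pla2g3*+/+ at 1.82 and had a ratio of −0.84 in *Pla2g3*-/-. With vehicle, *Pla2g3*-/- exceeded *Pla2g3*+/+ more than 2-fold for 3 receptor genes, *Itga9*, *Fpr1* and *Fpr2*, and 0 went the other way. Both *Fpr* genes were dim, which limits their ratios. *Fpr1* had an intensity of 12.07 in *Pla2g3*+/+, not well above background, against 33.48, so that its ratio is a bound. *Fpr2* had 15.45 against 37.25. The lowest intensities well above background on these arrays were 10.7 and 14.8. The shares of all genes in these directions were 2.24% and 1.55%. Of the 4 other CCN genes, *Wisp1*, a Wnt target, rose from 0.125 to 1.02 in *Pla2g3*+/+ and had 0.133 and 0.156 in *Pla2g3*-/-. *Nov*, which smooth muscle also expresses, fell from 1.31 to 0.0290 in *Pla2g3*+/+ and from 1.24 to 0.237 in *Pla2g3*-/-. The smooth muscle sums were 510 and 31.0 in *Pla2g3*+/+ and 535 and 487 in *Pla2g3*-/-, and their part in the ratios of *Nov* was not tested.

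The genes with patterns most like those of the members were sought among 18082 others well above background on all 4 arrays, by the Euclidean distance of their log2 signals after each gene was centered on its mean over the 4 arrays. *Clu* lay closest to *Avil*, the gene for advillin, at a distance of 0.21, and to *Defa-rs10* at 0.24, and 11 genes lay within 0.5. *Cyr61* lay closest to *Msr1*, a scavenger receptor of macrophages, at 0.07 and to the chemokine gene *Ccl7* at 0.09, with 124 genes within 0.5. *Ctgf* lay closest to *Dok7* and *Tgif1*, with 414 genes within 0.5, *Anxa1* to *Ctr9* and *Traf3*, with 1068, and *Ankrd1* to *Utp15* and *A930006K02Rik*, with 15. Among the members themselves, *Ctgf* lay at 0.60 from *Anxa1* and at 0.72 from *Cyr61*, and *Clu* lay 1.99 or more from each of the other 6. With 4 points per gene, such distances describe these arrays only.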

How the data were processed

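The 4 groups of mice were each measured on 1 one-color (Cy3) Whole Mouse Genome array, all on 1 slide, with groups taken from the deposited labels and 27.7 ng of pooled RNA labeled per array. The authors deposited spot intensity from Feature Extraction 11.5.1.1, with background subtracted and spatial trends removed, and with no scaling across arrays. The second deposited table holds a ratio of this intensity to the 75th percentile of the same array, and differed from the values used here by at most 0.00026 log2 units.

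Here, control spots and outlier spots were left out, log2 intensities of replicate spots were averaged and the 75th percentile of the array was subtracted. The brightest probe stood for a gene, with gene names and mm9 coordinates as in the array files. A ratio past 2-fold between 2 arrays was called. A signal not well above background was set to the array's lowest signal called well above background, or kept if higher, which gives a bound ("at least"), and no ratio was formed where both were dim. No test was run, since each group has 1 array and their number limits the precision. As alternatives, arrays were left unscaled, scaled by the median, quantile normalized or corrected by normexp with an offset of 50 and then quantile normalized (limma 3.58.1, R 4.3.3). Others used every dim probe, only pairs with both signals above background, the mean over probes or the dimmest probe, the deposited ratios and thresholds of 1.5-fold and 4-fold. Scaling to the epithelium markers was chosen after seeing the data. Python 3.11.15 and pandas 2.3.3 were used.

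The members, 9 other gene lists and 11 marker lists were chosen with earlier results of these data known. *Lats2* stands in 2 lists, as do *Anxa2*, *Anxa3*, *Anxa5* and *Anxa8*. Named genes were all members, all YAP, TAZ and TEAD genes, up to 3 genes per list and direction with the largest change past 2-fold, the brightest markers and the 2 genes most like each member whose signals spanned over 2-fold. Some genes of the fetal-like list are counted but not reported here by name.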

Additional observations from a re-analysis of the deposited data

Results flagged for a closer look

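The log2 ratios of *Clu*, *Cyr61* and *Ly6a* pointed in opposite directions in the compared groups by more than 0.1 log2 units each, which was not tested since each group has 1 array. *Clu* had a log2 ratio of AOM over vehicle of 3.74 in *Pla2g3*+/+ colon and −1.04 in *Pla2g3*-/- colon. *Cyr61* had a log2 ratio between the pools labeled *Pla2g3*-/- and *Pla2g3*+/+ of 0.38 with vehicle and −1.99 after AOM. *Ly6a* had a log2 ratio of AOM over vehicle of 0.12 in *Pla2g3*+/+ colon and −0.53 in *Pla2g3*-/- colon. The former was 0.09 with scaling by the median, under the limit of 0.1, and the latter was 0.32 without scaling between arrays.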

How the results depend on the processing

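Of 298 log2 ratios of the members recomputed under the alternatives, 271 kept their side of 2-fold, 5 that had passed no longer did, 22 passed that had not, and 6, all of ratios within 2-fold, had the other sign. Many of the 271 could not differ, so this number does not measure stability. The deposited ratios are the same quantity, the background filters leave ratios of 2 detected signals as they are, and the choice of probe matters for *Anxa1* only. All changes of side came with quantile normalization, with normexp and quantile normalization, without scaling or relative to the epithelium markers. Without scaling, 8 of the 8 genes were past 2-fold higher with AOM in *Pla2g3*+/+ colon and 4 in *Pla2g3*-/- colon. The median of all genes shifted by 1.05 and 0.84 log2 units in these comparisons. Relative to the epithelium markers, which shifted the median of all genes by 1.21 and 0.30 with AOM and by −0.996 between genotypes after AOM, 8 genes were higher with AOM in *Pla2g3*+/+ and 2 in *Pla2g3*-/-, and 8 were lower in *Pla2g3*-/- than in *Pla2g3*+/+ after AOM. With normexp and quantile normalization, 0 genes passed between the vehicle pools. A threshold of 1.5-fold gave 3 genes with AOM in *Pla2g3*-/- colon, 2 higher and 1 lower, and 6 lower between genotypes after AOM. A threshold of 4-fold left 3 in *Pla2g3*+/+, 0 in *Pla2g3*-/-, 2 between genotypes after AOM and 0 with vehicle. The shares of all genes past 1.5-fold and 4-fold were not computed, so these counts have nothing to be read against. No paired analysis was possible because each group has 1 array. *Ankrd1* lay near the lowest signal well above background on the *Pla2g3*-/- vehicle array, and *Spp1* was not well above background on 3 of 4 arrays, which limits their ratios.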

Other observations

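Wnt target genes of the crypt had the highest signals in the *Pla2g3*+/+ AOM pool. The log2 ratio of AOM over vehicle there was 3.58 for *Axin2* and 2.98 for *Rnf43*, both feedback inhibitors of Wnt signaling, against 0.35 and 0.85 in *Pla2g3*-/- colon. Among relatives of *Anxa1* and *Ly6a*, *Anxa13*, an annexin of differentiated enterocytes, had log2 ratios of −4.73 and −2.14 in these comparisons, and *Ly6g* had −0.96 and 1.05. *Ly6g* is known from neutrophils, but the sums of the neutrophil list did not follow it. They were 49.9 with vehicle and 91.6 after AOM in *Pla2g3*+/+ and 50.6 and 54.4 in *Pla2g3*-/-.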
